A study of Brassica oleracea with 4 samples.

Results

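The genes described here encode enzymes that handle reactive oxygen and oxidised molecules: 2 glutathione S-transferases (GSTs), 1 peroxidase and 2 copies of a methionine sulfoxide reductase. They are 5 of the 135 genes in the authors' deposited table for the hypocotyl, or embryonic stem, of young broccoli seedlings (Brassica oleracea) grown as microgreens. They were chosen by annotation from a table that was itself selected for a difference between the sprays and holds no gene under 2-fold. Their values below are therefore a description, with no test. Transcripts were measured by RNA sequencing at 10 days. All seedlings grew on hydroponic pads at 25 °C, first in the dark for 4 days, then in 12 h of light per day at 42 µmol per second and square metre. One group was sprayed daily with water and the other with 10 mmol/L calcium chloride (CaCl2). The labels give 2 libraries for each spray, with no statement that they came from separate trays. The table gives 1 RPKM per gene and group, a read count scaled to gene length and to the total of mapped reads, so no replicate error can be given and library depth is unknown. In every gene of the table the higher of the 2 group values is at least 25.8 RPKM, so genes low in both groups are absent as well.

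Plants continually make hydrogen peroxide and related oxidants, which act as signals and also damage proteins and lipids. GSTs join the tripeptide glutathione to reactive or foreign compounds, and the phi class, to which both GSTs here belong, occurs in plants. Secreted peroxidases use hydrogen peroxide to oxidise phenolic compounds in the cell wall, where they can cross-link wall polymers and so bear on how far a growing stem cell extends. Methionine sulfoxide reductases of the A type return oxidised methionine in proteins to methionine.

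Of the 5 genes, GSTF2 was the 1 with a higher value after calcium, and the other 4 had lower values. The lower values ranged from 2.47-fold lower for GSTF9 to 12.4-fold lower for the peroxidase. In the table all genes, 100% of 135, differ by at least 2-fold, 52.6% of them higher and 47.4% lower with calcium, so a difference of that size in each of the 5 genes follows from the selection. A difference of at least 3-fold was found in 2 of the 5 genes, the peroxidase and Bo3g004390, beside 50.4% of the table. An adjusted p under 0.001 stood in the authors' deposited table for 3 of the 5, beside 68.9% of all its genes. The median log2 ratio of calcium to water RPKM was -1.53 over the 5 genes and 1.04 over the table, in which 71 genes were higher and 64 lower. With no gene under 2-fold, the table median lies at the edge of the higher genes and is not a typical difference. The plot of both group values per gene shows these differences.

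**Figure D1:**
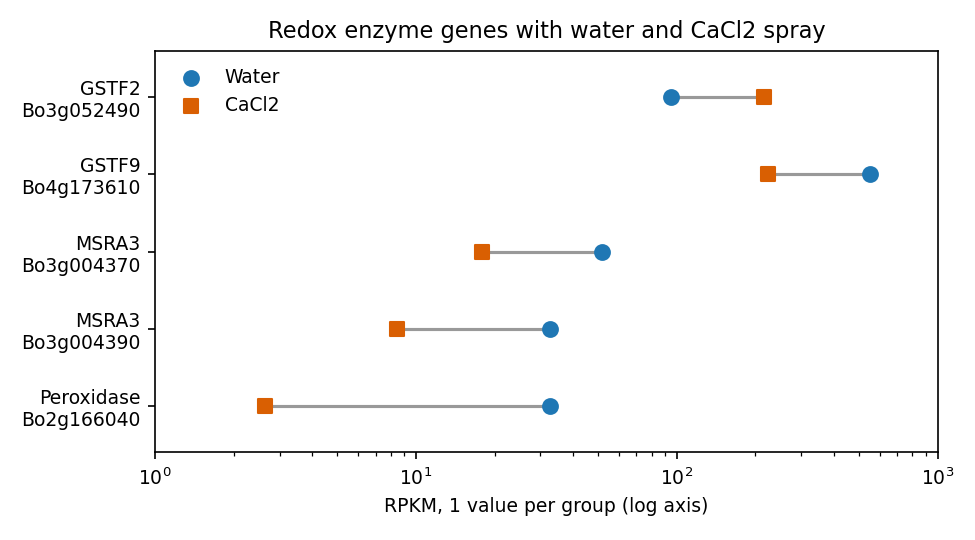
RPKM of the 5 redox enzyme genes on a log axis, with circles for the water group, squares for the CaCl2 group and a line joining the values of a gene; each point is 1 group value without an error. GSTF2 was at 95.4 RPKM with water and further right, at 215 RPKM, with CaCl2, while the other 4 genes had their CaCl2 value to the left of their water value.

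The GST pair had opposite differences. GSTF2 (Bo3g052490) was at 95.4 RPKM in the water group and 215 RPKM in the calcium group, 2.26-fold higher. GSTF9 (Bo4g173610) was at 552 RPKM in the water group and 224 RPKM in the calcium group, 2.47-fold lower. GSTF9 was the most abundant of the 5 genes in both groups, the 12th of the 135 genes with water and the 31st with calcium, while GSTF2 was the 46th and the 33rd. RPKM is scaled to length, so the levels of these genes can be set side by side: GSTF9 was 5.79 times the level of GSTF2 with water and 1.04 times with calcium. GSTF2 thus made up 14.7% of the summed RPKM of the pair with water and 49.0% with calcium. The sum itself was 648 RPKM in the water group and 439 RPKM in the calcium group, 1.48-fold lower. When the columns of the table were quantile normalized on the log2(RPKM + 1) scale, GSTF2 was 1.60-fold higher, under the 2-fold limit, and GSTF9 was 2.63-fold lower. The columns hold only genes selected for a difference, so this step does not normalize the libraries.

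The name GSTF2 comes from the deposited annotation, which calls the gene glutathione S-transferase PHI 2. The Arabidopsis match deposited beside it, AT2G02930, is the locus usually called GSTF3, which encodes a protein very like GSTF2. The name of Bo3g052490 is uncertain to that extent, and its placement among the phi GSTs is the same under both names. GSTF9 matches AT2G30860, the Arabidopsis locus of that name, whose product is placed in models of indole glucosinolate synthesis, the pathway of sulfur-containing defence compounds typical of broccoli. In Arabidopsis, GSTF2 is known to bind the defence compound camalexin.

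The peroxidase gene (Bo2g166040, matching AT5G64100) had the largest difference of the 5. It was at 32.7 RPKM in the water group and 2.65 RPKM in the calcium group, 12.4-fold lower, so that 8.09% of the water value was left. The annotation names only the peroxidase superfamily, and AT5G64100 belongs to the secreted class III peroxidases of Arabidopsis. Its fold difference was the 6th largest among the 64 genes that were lower with calcium. The peroxidase also was the 1 gene of the 5 in the authors' cluster 2, which in the authors' deposited table holds the 8 genes that were lower by 8.13-fold or more. The fold difference rests on a small calcium value: with 5 RPKM added to both values the gene was 4.93-fold lower. Its water value was near 25.8 RPKM, the lowest that any gene of the table has in its higher group.

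Both copies matching MSRA3 (AT5G07470), the A-type methionine sulfoxide reductase, were lower with calcium. Bo3g004370 was at 51.7 RPKM in the water group and 17.9 RPKM in the calcium group, 2.88-fold lower. Bo3g004390 was at 32.6 RPKM in the water group and 8.46 RPKM in the calcium group, 3.86-fold lower. Its water value, like that of the peroxidase, was near the table's lowest higher-group value of 25.8 RPKM. The more abundant copy in both groups, Bo3g004370, had the smaller fold difference. Its level was 1.58 times that of Bo3g004390 with water and 2.12 times with calcium, and it made up 61.3% and 68.0% of their summed RPKM. That sum was 84.3 RPKM in the water group and 26.4 RPKM in the calcium group, 3.19-fold lower. The sources used here do not say whether reads were shared between the copies, so the value of each copy is less certain than their sum.

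The ratios of the MSRA3 copies were 1.34 times apart. With 5 RPKM added to all values they were 1.13 times apart, and under quantile normalization 1.52 times apart. In all, 13 Arabidopsis genes were matched by more than 1 gene of the table, 12 of them by a pair. In these sets the ratios of the copies were between 1.01 and 3.89 times apart, with a median of 1.23, and the MSRA3 pair was the 6th widest. In all 13 sets the copies differed in the same direction, in a table with 52.6% of genes higher and 47.4% lower with calcium. Whether reads were shared between copies is not known for any set, so the copies cannot be taken as independent. A copy under 2-fold, or under 25.8 RPKM in both groups, is absent from the table, so the selection limits the distances between copies and the rank. The widest were the genes for plant cadmium resistance 2 and the closest were those for TSO2, a subunit of ribonucleotide reductase. The less abundant copy, by the higher of its 2 group values, had the largest fold difference in 8 of the 13 sets, the MSRA3 pair among them. In a pair either copy can have the larger one, so this count is not read as a pattern, and it was not tested. The plot of copy sets gives each copy's log2 ratio. Without a value per library, the distance between copies cannot be set against a replicate spread.

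**Figure D2:**
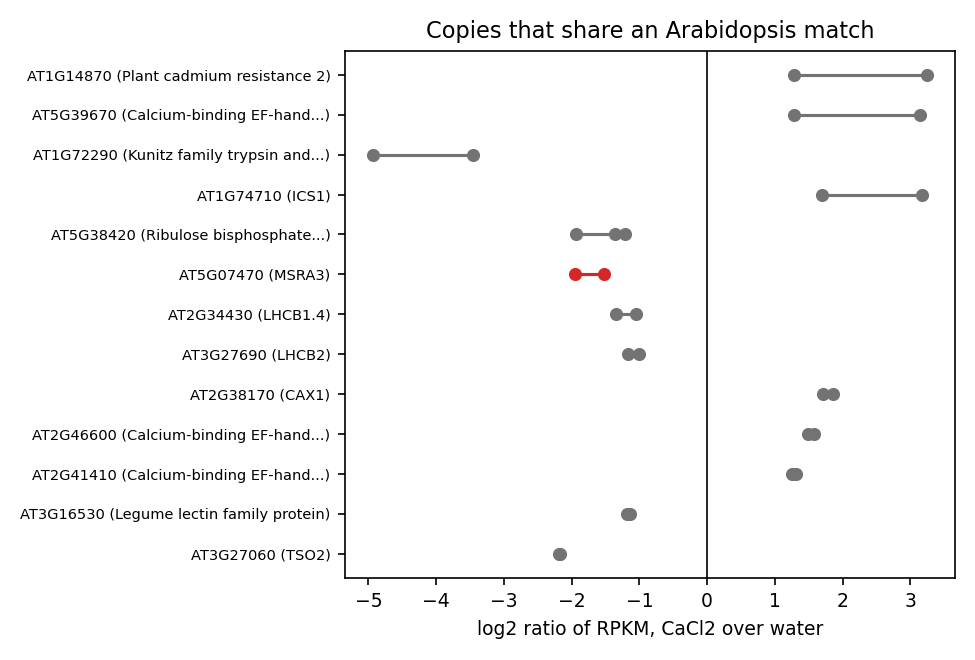
log2 ratio of CaCl2 to water RPKM for the 13 sets of genes that share an Arabidopsis match, 1 point per gene, with a line over each set; sets are ordered by the distance between their copies. The MSRA3 copies, in red, lie at -1.53 and -1.95, and their set is the 6th widest.

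The peroxidase and the second MSRA3 copy, Bo3g004390, had nearly the same level with water, 32.7 and 32.6 RPKM. With calcium they were at 2.65 and 8.46 RPKM, so that the MSRA3 copy stood 3.20 times above the peroxidase. GSTF9 and the first MSRA3 copy, Bo3g004370, had levels 10.7 times apart with water, and their ratios to water, 2.47-fold and 2.88-fold lower, were 1.17 times apart. The 5 genes thus spanned 2.65 to 224 RPKM with calcium and 32.6 to 552 RPKM with water.

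The authors' deposited table also gives an adjusted p-value per gene, by a test that the sources used here do not name. In the authors' deposited table this value was listed as 0 for GSTF9, 1.57e-09 for GSTF2, 0.000202 for the peroxidase, 0.0165 for Bo3g004370 and 0.0402 for Bo3g004390. A value of 0 was listed for 41 of the 135 genes, and the value of GSTF2 was the 52nd in ascending order. GSTF9 and GSTF2 had the smallest fold differences of the 5 genes, and the largest differences in level, 329 RPKM lower and 120 RPKM higher with calcium. The MSRA3 copies differed by 33.7 and 24.2 RPKM, and the value of Bo3g004390 was the 133rd of 135 in ascending order in the authors' deposited table, whose highest is 0.0423. The sources used here do not say whether these p-values take in the spread between libraries.

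Word patterns for redox enzymes, matched to the annotation, took in 14 genes: the 5 above and 9 others, all in a list of oxidases, reductases, oxygenases and cytochromes P450. No further GST, peroxidase, catalase, superoxide dismutase, thioredoxin, glutaredoxin or NADPH oxidase was found in the annotation words. Since the table holds selected genes only, this says nothing about the levels of other such genes. Of the 9 others, 4 were higher with calcium and 5 were lower. Their median log2 ratio of -1.34 is the smallest difference among the 5 lower genes, so it reflects the split of the counts. Over all 14 the counts were 5 higher and 9 lower, or 5 of the 71 higher genes and 9 of the 64 lower genes of the table.

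The higher genes among the others were led by an oxygenase that depends on 2-oxoglutarate and iron (Bo5g004490), at 1.44 and 33.2 RPKM, 23.1-fold higher. DMR6 (Bo2g159320), an oxygenase of the same family that hydroxylates salicylic acid in Arabidopsis, was at 50.6 and 114 RPKM, 2.25-fold higher. The cytochromes P450 CYP91A2 (Bo1g003710) and CYP81D8 (Bo7g118510) were 2.33-fold and 2.03-fold higher. The third P450 of the list was lower: CYP79B2 (Bo7g118840), which turns tryptophan into an intermediate of indole glucosinolates, was at 39.1 and 10.1 RPKM, 3.88-fold lower. Both TSO2 genes, Bo2g140330 and Bo7g084180, were 4.51-fold and 4.54-fold lower, and their place in the list rests on the word reductase, since TSO2 makes DNA precursors. OPR1 (Bo2g091100), an oxophytodienoate reductase, was 2.73-fold lower. The remaining gene, SQE5 (Bo7g097120), annotated as an oxidoreductase, was at 92.1 and 36.3 RPKM, 2.54-fold lower. The plot of all genes places these 14 in the table.

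**Figure D3:**
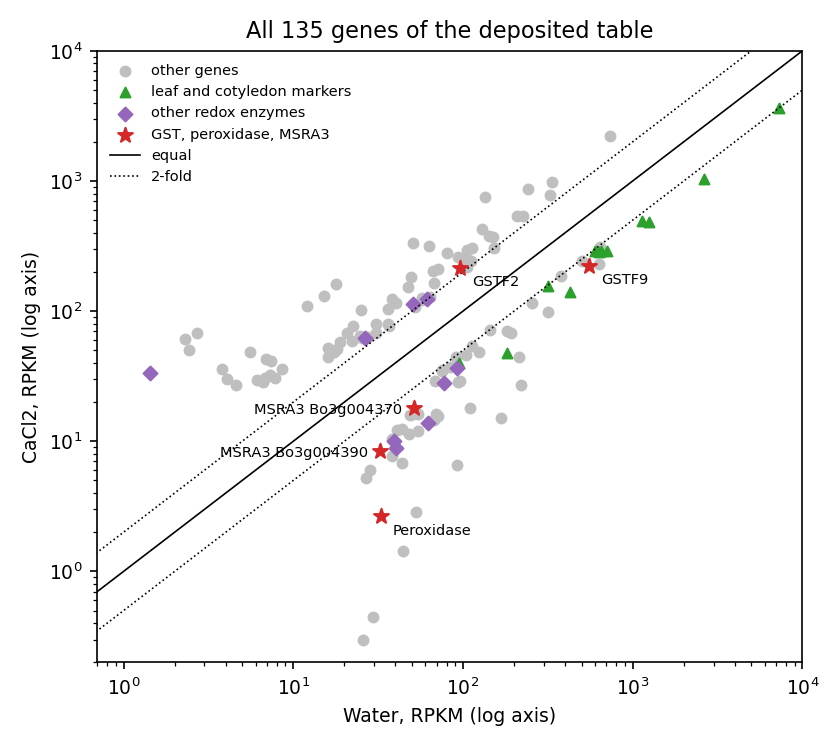
RPKM with CaCl2 against RPKM with water for the 135 genes, both on log axes, with 1 point per gene; the solid line marks equal values and the dotted lines a 2-fold difference. Stars mark the 5 redox enzyme genes and diamonds the 9 other redox enzymes. Triangles mark the 12 genes matched by annotation words as leaf and cotyledon markers. All triangles, and all stars except GSTF2, lie below the line of equal values.

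In the same samples, annotation words for photosynthesis matched 12 genes, listed here as leaf and cotyledon markers. They encode light-harvesting proteins, RuBisCO small subunits and a photosystem I subunit. All had lower values in the calcium group, by 2.01-fold to 3.83-fold. Their summed level was 15889 RPKM in the water group and 7147 RPKM in the calcium group, 2.22-fold lower. None of the 12 was at 0 in a group. GSTF9 and Bo3g004370 were lower by amounts inside that range. Bo3g004390, 3.86-fold lower on a calcium value of 8.46 RPKM, was next to its upper end, and the peroxidase, 12.4-fold lower, was well above it. The single gene matched by the word root, RGF9 (Bo2g166400), was 3.36-fold lower, at 54.3 and 16.2 RPKM. Seed and embryo words matched 2 genes, both higher with calcium. Bo4g190800, annotated as a late embryogenesis abundant protein, was 20.7-fold higher. Bo9g120390 was 2.65-fold higher, and its match rests on a family name shared by lipid-transfer proteins and seed storage albumins. All these lists rest on annotation words, which do not show the tissue a transcript came from. Whether other tissues had a part in the values of the 5 genes was not tested. In bulk hypocotyl RNA, fewer cells of a type and less RNA per cell cannot be told apart.

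The genes with the most similar pair of values were found by the distance between log2 RPKM values, over the water and calcium values only. For GSTF2 it was XTH15 (Bo8g036840), a wall-remodelling enzyme gene, at 105 and 217 RPKM, a distance of 0.14. For GSTF9 it was a gene of the invertase and pectin methylesterase inhibitor superfamily (Bo9g014930), at 505 and 242 RPKM, a distance of 0.17. For Bo3g004370 it was Bo1g123690, annotated as an N-terminal nucleophile aminohydrolase, at 50.9 and 16.3 RPKM, a distance of 0.14. For Bo3g004390 it was the beta glucosidase gene BGLU18 (Bo6g028090), at 38.2 and 7.67 RPKM, a distance of 0.27. The peroxidase had no gene as close: the nearest, Bo4g194410, without annotation, was at 53.0 and 2.84 RPKM, a distance of 0.70. A likeness over 2 values describes level and ratio alone.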

How the data were processed

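Total RNA from hypocotyls was purified with a column kit and sequenced from Illumina TruSeq libraries, per the labels' protocols. Per the file headers, the authors deposited 1 RPKM value per gene for a control group, taken here as water, and 1 for calcium. They also deposited the log10 of each RPKM, a signed fold change given here as a score, an adjusted p-value and a cluster number. The log10 and fold columns of all 135 genes were checked against the RPKM values and held to within 0.01. The submitters' processing notes name CASAVA. Not given in the sources used here are the aligner, genome build, gene lengths, the combining of libraries and the test. Positions and sequences are not given here: of the 135 identifiers, 0 were in the RefSeq gene table at hand.

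Fold differences are plain ratios of the RPKM values, with no pseudocount. The planned limma test could not be fitted, since it requires separate library values. The table gives no depth, so no interval is given. Alternatives were pseudocounts of 0.1, 1 and 5 RPKM, quantile normalization, a median shift, and stricter fold, p-value and RPKM limits. The calculations were tested on simulated data. The named genes were the 5 members, the nearest gene to each, and the other genes of the redox word lists; the marker and TSO2 genes were named for the lists and copy sets they belong to. The members and word lists were chosen with earlier results of these data known. Python 3.11.15, NumPy 2.4.6, pandas 2.3.3 and matplotlib 3.10.9 were used.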

Additional observations from a re-analysis of the deposited data

How the results depend on the processing

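The direction of each of the 5 genes was the same under every alternative run. A pseudocount cannot reverse a direction, and subtracting a positive median cannot do so for the lower genes. Only quantile normalization, and the median shift for GSTF2, could have reversed one. Pseudocounts of 0.1 and 1 RPKM and quantile normalization moved no ratio by over 1.5 times. With 5 RPKM added, the log2 ratio of the peroxidase went from -3.63 to -2.30. Subtracting the median log2 ratio of the table, 1.04, gave 0.14 for GSTF2, -2.34 for GSTF9, -2.57 for Bo3g004370, -2.99 for Bo3g004390 and -4.67 for the peroxidase. That median lies at the edge of the higher genes, in a table without genes under 2-fold, so the shift is not a normalization of the libraries. Quantile normalization used the same selected genes and is not one either. Past 3-fold were 2 of the 5 genes, beside 50.4% of the table, and under a deposited adjusted p of 0.001 were 3 of the 5, beside 68.9% of the table. Of the redox word lists, 1 of the 5 higher genes was past 3-fold, beside 34 of the 71 higher genes of the table, and 5 of the 9 lower genes, beside 34 of the 64 lower. The p limit was met by 4 of the 5 higher genes, beside 49 of 71, and by 5 of the 9 lower genes, beside 44 of 64. No paired analysis was possible because the table holds no value per library, and leaving out a library was not possible for the same reason. Depth is unknown, which limits the low values most, such as the peroxidase with calcium.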
